A study of Mus musculus with 4 samples.

Results

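Messenger RNA of the MHC class I antigen presentation pathway was examined in mouse lung through 10 genes, chosen by symbol: the heavy chains H2-K1 and H2-D1, the light chain B2m, the peptide transporter genes Tap1, Tap2 and Tapbp, the immunoproteasome genes Psmb8, Psmb9 and Psmb10, and the transactivator Nlrc5. These were 10 of the 23282 rows in each library, and all 10 had a mean normalized read count of at least 50. The 4 libraries, 1 per group, crossed treadmill exercise (E) with tumor (T) in male CDF1 mice, a hybrid of the BALB/c and DBA/2 strains. The groups were the normal control E(-)T(-), the normal exercise group E(+)T(-), the cancer control E(-)T(+) and the cancer exercise group E(+)T(+). Mice of the T(+) groups had received CT26 cells, a BALB/c-derived colorectal carcinoma line, in the tail vein, and mice of the E(+) groups ran at high intensity every other day. Each group held 10 mice and the label age was postnatal day 28, which may be the age at purchase and not at sampling. Whether each lung library came from 1 mouse or from pooled mice is not stated. The study took muscle from a representative mouse of each group and examined lung in a similar way, which points to 1 mouse. With 1 library per group, no difference below has a replicate check and no p-value is given.

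Class I molecules show peptides from inside the cell to CD8 T cells and are made by nearly all nucleated cells. Peptides are cut by the proteasome, in which the interferon-induced subunits encoded by Psmb8, Psmb9 and Psmb10 replace the constitutive ones encoded by Psmb5, Psmb6 and Psmb7. The Tap1-Tap2 transporter carries them into the endoplasmic reticulum, where tapasin, the product of Tapbp, holds the transporter beside a heavy chain paired with beta-2 microglobulin. Nlrc5 acts at class I promoters with factors that bind the conserved SXY module, and interferon-gamma raises the whole set. Loss of class I is a known route by which tumor cells avoid T cells, and class II molecules, which are largely limited to antigen-presenting cells, form a separate pathway.

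In the GRCm38 (mm10) assembly with the GENCODE M21 annotation, Psmb9 (chr17:34181987-34187764, minus strand), Tap1 (chr17:34187553-34197225, plus), Psmb8 (chr17:34197721-34201454, plus) and Tap2 (chr17:34203527-34216321, plus) lie within 34.3 kb. Tap1 and Psmb9 start head to head, and their gene models overlap by 212 bases. Tapbp lies at chr17:33915899-33929292 (plus), H2-K1 at chr17:33996017-34000347 (minus) and H2-D1 at chr17:35262730-35267499 (plus). B2m is on another chromosome, at chr2:122147686-122153083 (plus), as are Psmb10 (chr8:105935735-105938444, minus) and Nlrc5 (chr8:94434356-94527272, plus). The libraries were primed at the poly(A) tail, so reads come from transcript ends. In the last 500 bases of the longest coding transcript of each of the 10 genes, 0 of 426 windows of 75 bases, the read length, matched a transcript of another gene exactly. Opposite-strand models cover the transcript ends of B2m (Patl2), Psmb8 (Gm20496) and Psmb10 (Gm16156). Patl2 was listed at 0 in all 4 libraries, and the other 2 models have no row in the files. The mm10 assembly is of C57BL/6, which carries the b haplotype of the mouse MHC, whereas both parents of CDF1 mice and CT26 cells carry the d haplotype. How reads of d alleles of H2-K1 and H2-D1 aligned to this reference was not tested. The window check used reference transcripts and exact matches, so it does not cover d alleles. The reference transcripts of H2-K1 and H2-D1 were 90.3% identical over 1475 aligned bases. H2-L, another class I gene with a row in the files, had 0 to 5 reads per library. Whether reads of 1 heavy chain gene were counted for another was not tested.

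Promoters are shown for the heavy chains, the light chain and Tap1, because their exercise differences, given below, had unlike directions. Windows of 250 bases before and 50 after the annotated start were taken from RefSeq (GRCm38.p6), where 8 of the 10 genes matched. Tap2 and Nlrc5 were not matched. The windows are chr17:34000298-34000597 for H2-K1 (minus strand, the first of the entries listed), chr17:35262844-35263143 for H2-D1 (plus), chr2:122147437-122147736 for B2m (plus) and chr17:34187306-34187605 for Tap1 (plus), each written 5′ to 3′. Capitals mark matches, on either strand, to the interferon-stimulated response element core GAAANNGAAA, the gamma-activated site TTCNNNGAA, the kappa B motif GGGNNNNNCC, CCAAT and TGACG, a core of the cyclic AMP response element. Matches may overlap one another.

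H2-K1: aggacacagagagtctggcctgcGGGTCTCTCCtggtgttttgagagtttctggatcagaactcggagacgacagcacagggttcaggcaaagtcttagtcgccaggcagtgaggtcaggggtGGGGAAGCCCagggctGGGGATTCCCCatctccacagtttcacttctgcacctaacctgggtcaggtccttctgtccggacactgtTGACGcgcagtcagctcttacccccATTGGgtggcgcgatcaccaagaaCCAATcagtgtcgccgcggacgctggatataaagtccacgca
H2-D1: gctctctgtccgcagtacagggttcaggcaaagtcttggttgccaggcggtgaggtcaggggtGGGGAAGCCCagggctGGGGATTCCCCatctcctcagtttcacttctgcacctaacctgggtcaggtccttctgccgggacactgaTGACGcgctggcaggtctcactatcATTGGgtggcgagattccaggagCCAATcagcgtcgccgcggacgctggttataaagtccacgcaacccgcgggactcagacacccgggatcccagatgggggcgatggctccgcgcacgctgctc
B2m: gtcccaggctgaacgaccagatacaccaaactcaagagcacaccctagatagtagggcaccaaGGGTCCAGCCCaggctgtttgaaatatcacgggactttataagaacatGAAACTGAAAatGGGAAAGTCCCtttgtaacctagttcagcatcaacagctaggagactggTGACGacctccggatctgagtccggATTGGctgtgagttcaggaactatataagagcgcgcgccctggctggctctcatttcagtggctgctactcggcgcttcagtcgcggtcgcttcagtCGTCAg
Tap1: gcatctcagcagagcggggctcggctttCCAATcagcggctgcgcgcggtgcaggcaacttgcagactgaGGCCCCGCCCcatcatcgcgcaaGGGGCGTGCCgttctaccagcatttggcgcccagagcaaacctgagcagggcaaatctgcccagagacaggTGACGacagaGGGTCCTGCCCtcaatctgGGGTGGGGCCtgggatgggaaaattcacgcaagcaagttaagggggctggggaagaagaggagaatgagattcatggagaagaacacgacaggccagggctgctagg

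The H2-K1 and H2-D1 windows were 88.3% identical over 239 aligned bases, and both carry the same run GGGGATTCCCC, which holds a pair of overlapping kappa B matches. Relative to the annotated start the run begins at -111 in H2-K1 and -171 in H2-D1. The annotated starts therefore do not lie at the same place in the aligned sequence. B2m holds GAAACTGAAA and, just after it, GGGAAAGTCCC. The kappa B motif was found in 5 of the 8 windows (50.8% of 32851 RefSeq mouse windows of the same length), CCAAT in 6 of 8 (37.4%) and TGACG in 5 of 8 (20.8%). The response element core was found in 1 of 8, B2m (3.44% of all windows), and the gamma-activated site in 1 of 8, Psmb8 (8.3%). The Tap1 and Psmb9 windows share 275 bases on opposite strands. These are matches of letters and not measured sites. Only exact matches to each pattern were counted, so a window without a match may still hold a variant of that motif. Whether the H2-K1 and H2-D1 windows hold a variant of the response element was not tested.

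Before the results, the libraries themselves need a description. Recovered reads ranged from 9354530 in the cancer control to 13368070 in the cancer exercise library, so that 3 reads, taken as the floor, stand for 0.224 to 0.321 CPM. Hemoglobin genes held 14.3% of the reads in the normal control, 14.2% in normal exercise, 1.43% in the cancer control and 31.4% in cancer exercise. Summed normalized counts of 5 alveolar type 2 cell markers were 191142, 225302, 26243 and 155490 in the same order, and those of 5 endothelial markers 17465, 17880, 1965 and 14355. All of these lung markers had reads in every library, but both sums were far lower in E(-)T(+). Fibroblast markers went the other way, with sums of 9532, 9422, 36498 and 14462. Markers of dividing cells summed to 236, 509, 6166 and 2438. Of the keratin and epithelial genes listed for CT26 cells, Krt20 had 0, 46, 2696 and 476 reads, so that E(+)T(-), labelled without tumor, also held Krt20 reads. The other 4 genes of that list, Krt8, Krt18, Krt19 and Epcam, had fewer reads in the cancer control than in the normal control (349 against 990 for Krt8), whereas Krt8, Krt18 and Krt19 were highest in the cancer exercise library (1907 reads for Krt8). In whole lung, fewer cells of a type and less RNA per cell cannot be told apart.

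Most of the 10 genes spanned a narrower range than the median row, except Tap1, Tap2 and Nlrc5. The log2 range across the 4 libraries had a median of 0.72 for the 10 genes, and 6 of 10 stayed within a range of 1, which is 2-fold. Over the 15164 rows that passed the filter (mean normalized read count 4 or more) the median range was 1.38, and 34.0% of rows stayed within 1. Over the 3848 rows with a mean of at least 500, a level closer to that of the abundant members, the median range was 0.996 and the share was 50.3%. Levels below are given as log2(normalized read count + 1) with the normal control first, then normal exercise, then the cancer control and last cancer exercise. Differences are on the same log2 scale, and the intervals beside them are 95% exact (Clopper-Pearson) intervals of the read ratio, which cover counting error only.

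**Figure D1:**
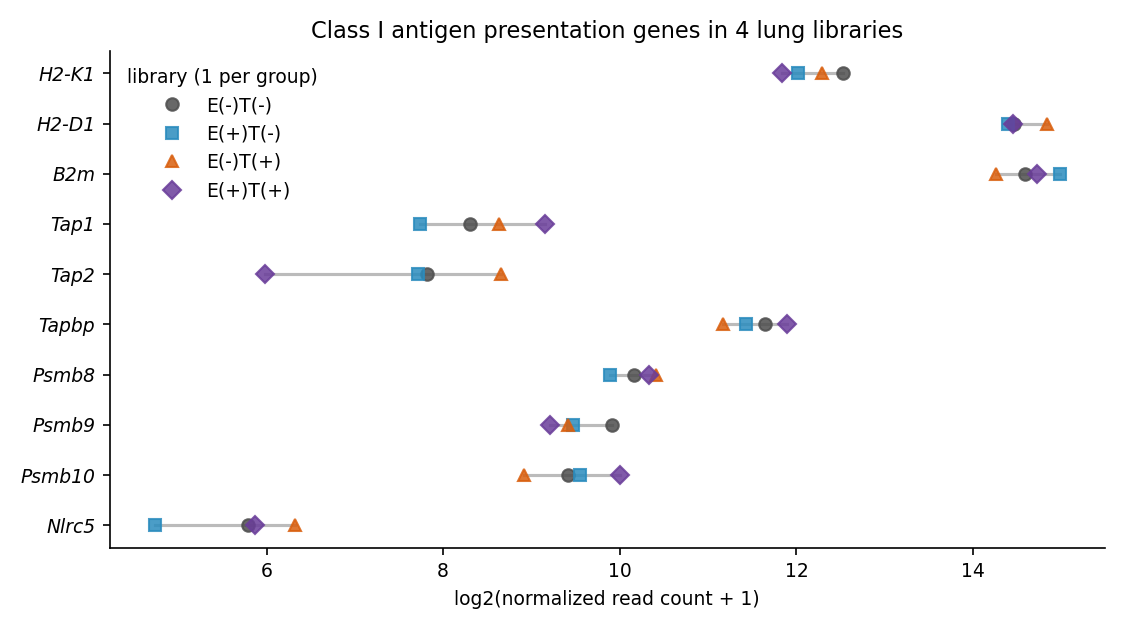
Log2(normalized read count + 1) of the 10 genes on the horizontal axis in the 4 lung libraries, with 1 symbol per library and a grey line from the lowest to the highest. Tap2 has the widest range, 2.68, with E(+)T(+) apart from the rest, and H2-D1 the narrowest, 0.44.

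The heavy chains were among the most abundant transcripts of the lung. H2-K1, the K-locus heavy chain, was at 12.53, 12.01, 12.29 and 11.83, or 6968, 4501, 4554 and 3118 reads. Both exercised libraries were lower than both resting libraries. The exercise difference was -0.52 (interval -0.57 to -0.46) without tumor and -0.45 (-0.52 to -0.39) with tumor (-1.06 with library totals alone), while the tumor differences were -0.25 (-0.30 to -0.19) at rest and -0.18 (-0.25 to -0.12) with exercise, the latter -0.59 with library totals alone. H2-D1, the D-locus heavy chain, was at 14.47, 14.40, 14.84 and 14.45, from 26704, 23500, 26802 and 19156 reads. Its level was highest in the cancer control and nearly even in the other libraries. The tumor difference at rest was 0.37 (0.35 to 0.40) and the exercise difference with tumor was -0.39 (-0.42 to -0.36), or -0.9996 with library totals alone. Without tumor the exercise difference was -0.07 (-0.10 to -0.05). The tumor difference with exercise, 0.05 (0.03 to 0.08), turned negative when libraries were scaled by their totals (-0.36) or by totals without hemoglobin (-0.04).

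B2m, the light chain shared by all class I molecules, ran opposite to the heavy chains with exercise, though not under library totals alone in the tumor libraries. It was at 14.59, 14.98, 14.26 and 14.72, from 29041, 35179, 17954 and 23099 reads. Both exercised libraries were higher than both resting ones. The exercise difference was 0.39 (0.37 to 0.41) without tumor and 0.46 (0.43 to 0.49) with tumor, the latter turning to -0.15 with library totals alone. The tumor differences were -0.33 (-0.35 to -0.30) at rest and -0.26 (-0.28 to -0.24) with exercise, the latter -0.67 with library totals alone.

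Ratios of reads inside a library do not depend on scaling between libraries. The H2-K1 to B2m ratio was 0.240 (exact interval 0.234 to 0.246) in the normal control, 0.128 (0.124 to 0.132) in normal exercise, 0.254 (0.245 to 0.262) in the cancer control and 0.135 (0.130 to 0.140) in cancer exercise. With exercise it was 0.533 times the resting value without tumor and 0.532 times with tumor, and with tumor it was 1.06 times the value without, whether at rest or with exercise. In these 4 libraries H2-K1 relative to B2m separated exercise from rest, and differed little with tumor. The H2-D1 to B2m ratio was 0.920, 0.668, 1.49 and 0.829. It too was lower with exercise, at 0.727 times the resting value without tumor and 0.556 times with tumor, but it was 1.62 times higher with tumor at rest. The H2-K1 to H2-D1 ratio was 0.261, 0.192, 0.170 and 0.163, highest in the normal control.

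**Figure D2:**
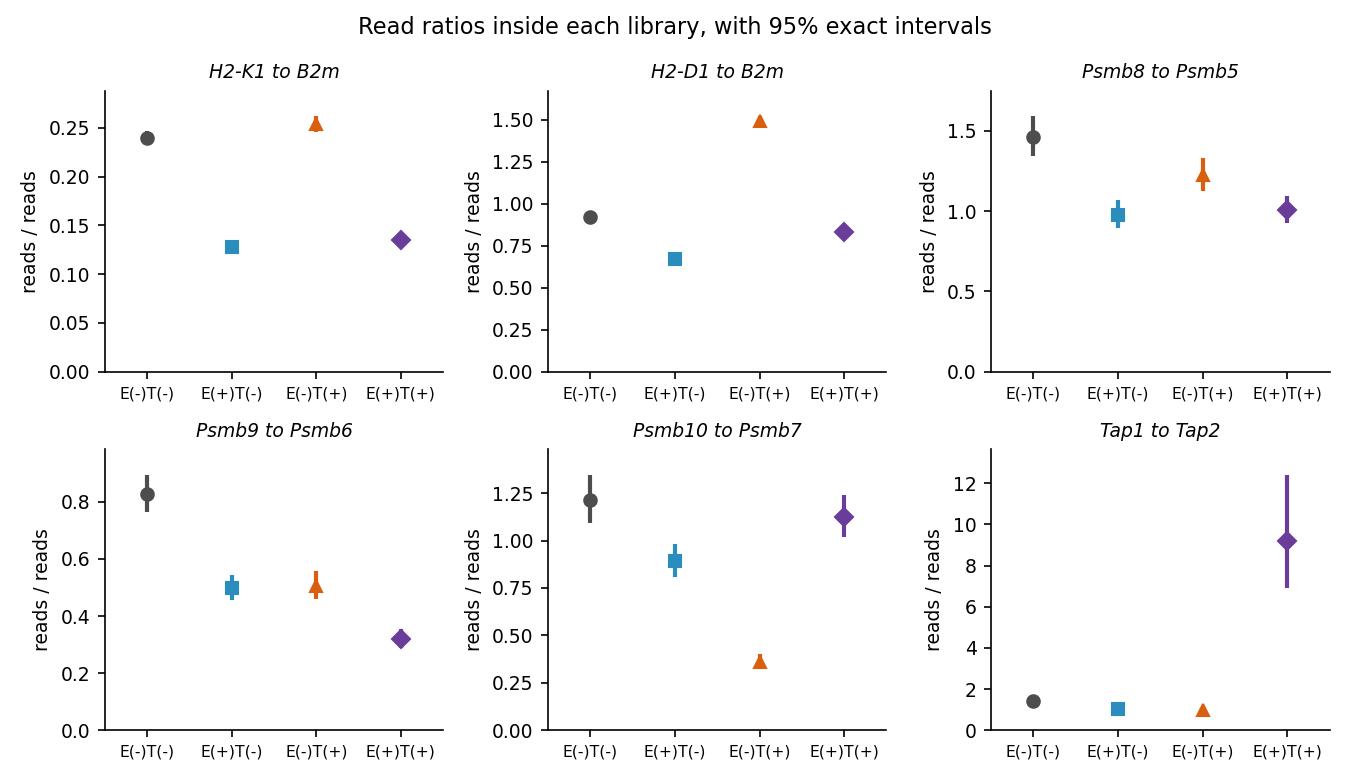
Reads of the first gene over reads of the second inside each of the 4 libraries, on linear axes that start at 0, with vertical lines for 95% exact intervals. The H2-K1 to B2m ratio is near 0.13 in both exercised libraries and near 0.25 in both resting ones, and the Tap1 to Tap2 ratio stands apart in E(+)T(+) at 9.17.

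Tap2 gave the largest difference of the 10. Tap1, which encodes the first transporter subunit, was at 8.31, 7.74, 8.64 and 9.15, from 372, 232, 362 and 486 reads. It was lowest in the normal exercise library and highest in the cancer exercise library. The tumor difference with exercise was 1.41 (1.19 to 1.65), a fold of 2.66, against 0.33 (0.11 to 0.54) at rest. Scaling by library totals alone brought it to 0.999, just inside the 2-fold limit. Exercise went with -0.57 (-0.81 to -0.33) without tumor and 0.52 (0.32 to 0.72) with tumor, and the latter was -0.09 with library totals alone. Tap2, which encodes the partner subunit, was at 7.82, 7.71, 8.66 and 5.98, from 264, 227, 368 and 53 reads. Its level in E(+)T(+) was far below the rest. The exercise difference with tumor was -2.68 (-3.15 to -2.28), a fold of 6.40 lower (-3.28 with library totals alone), and the tumor difference with exercise was -1.73 (-2.21 to -1.31), a fold of 3.32 lower. At rest the tumor difference was 0.84 (0.61 to 1.08), and without tumor the exercise difference was -0.11 (-0.37 to 0.16), an interval that includes 0.

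The transporter works as a pair of subunits. The Tap1 to Tap2 read ratio was 1.41 (1.20 to 1.66), 1.02 (0.847 to 1.23) and 0.984 (0.848 to 1.14) in the normal control, normal exercise and cancer control libraries, and 9.17 (6.90 to 12.4) in the cancer exercise library. The intervals of normal exercise and the cancer control include 1. Tap2 was also out of step with its neighbor Psmb8, at 0.196, 0.220, 0.297 and 0.0483 reads of Tap2 per read of Psmb8. The Tap2 value of E(+)T(+) comes from 53 reads of a single library. Tapbp was at 11.64, 11.43, 11.17 and 11.90, from 3760, 3007, 2097 and 3264 reads. It was lowest in the cancer control and highest in the cancer exercise library. Its tumor difference was -0.48 (-0.55 to -0.40) at rest and 0.47 (0.39 to 0.54) with exercise, and its exercise difference was -0.21 (-0.28 to -0.14) without tumor and 0.73 (0.65 to 0.81) with tumor. With library totals alone the difference for tumor with exercise was 0.05 and that for exercise with tumor was 0.12. Zbtb22, whose model overlaps the first part of Tapbp on the same strand, had 254 to 440 reads.

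The immunoproteasome subunits did not move as a unit. Psmb8, which encodes the chymotrypsin-like subunit, was at 10.16, 9.89, 10.41 and 10.33, from 1348, 1033, 1239 and 1098 reads. Its range of 0.52 was the second narrowest of the 10. The tumor differences were 0.25 (0.13 to 0.36) at rest and 0.44 (0.31 to 0.56) with exercise, and the exercise difference with tumor, -0.08 (-0.20 to 0.04), had an interval that includes 0. With library totals alone the tumor difference with exercise was 0.02 and the exercise difference with tumor was -0.69. Psmb9 was at 9.91, 9.47, 9.41 and 9.21, from 1132, 772, 619 and 507 reads. It was highest in the normal control and lower in each of the other libraries, by -0.44 (-0.57 to -0.31) with exercise alone and -0.50 (-0.65 to -0.36) with tumor alone. Between the tumor libraries the exercise difference was -0.19 (-0.37 to -0.02), or -0.80 with library totals alone, and between the exercised libraries the tumor difference was -0.26 (-0.42 to -0.10), or -0.67. Psmb10 was at 9.41, 9.55, 8.92 and 10.00, from 799, 813, 440 and 876 reads. The cancer control was lowest, and the exercise difference with tumor was 1.09 (0.92 to 1.26), a fold of 2.12. Scaling by library totals alone brought it to 0.48. Without tumor the exercise difference was 0.14 (-0.005 to 0.28). Its tumor difference was -0.49 (-0.67 to -0.32) at rest and 0.45 (0.32 to 0.60) with exercise, the latter 0.04 with library totals alone.

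Set against the constitutive subunits they replace, the immunoproteasome genes gave read ratios that differed between libraries. The Psmb9 to Psmb6 read ratio was 0.827 (0.764 to 0.896), 0.499 (0.457 to 0.544), 0.507 (0.459 to 0.559) and 0.320 (0.289 to 0.354). Exercise and tumor each went with a ratio of 0.603 to 0.642 times the matched library. The Psmb8 to Psmb5 ratio was 1.46 (1.34 to 1.59), 0.978 (0.897 to 1.07), 1.23 (1.13 to 1.33) and 1.01 (0.926 to 1.096), lower in both exercised libraries. The Psmb10 to Psmb7 ratio was 1.21 (1.09 to 1.35), 0.890 (0.809 to 0.980), 0.359 (0.321 to 0.401) and 1.13 (1.02 to 1.24), with the cancer control apart. In that library Psmb7 was 1.26 higher than in the normal control, so both genes of the pair differed.

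Nlrc5, the class I transactivator, was the least abundant of the 10. It was at 5.79, 4.74, 6.32 and 5.87, from 64, 28, 72 and 49 reads. It was lowest in the normal exercise library and highest in the cancer control. The exercise difference without tumor was -1.05 (-1.78 to -0.42), which came inside the 2-fold limit with a pseudocount of 4, and the tumor difference with exercise was 1.13 (0.46 to 1.88), or 0.72 with library totals alone. The tumor difference at rest was 0.53 (0.03 to 1.05) and the exercise difference with tumor was -0.45 (-1.02 to 0.08), an interval that includes 0, and it was -1.05 with library totals alone. At this depth a 2-fold change of Nlrc5 lies within the counting intervals of both differences that passed the limit.

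**Figure D3:**
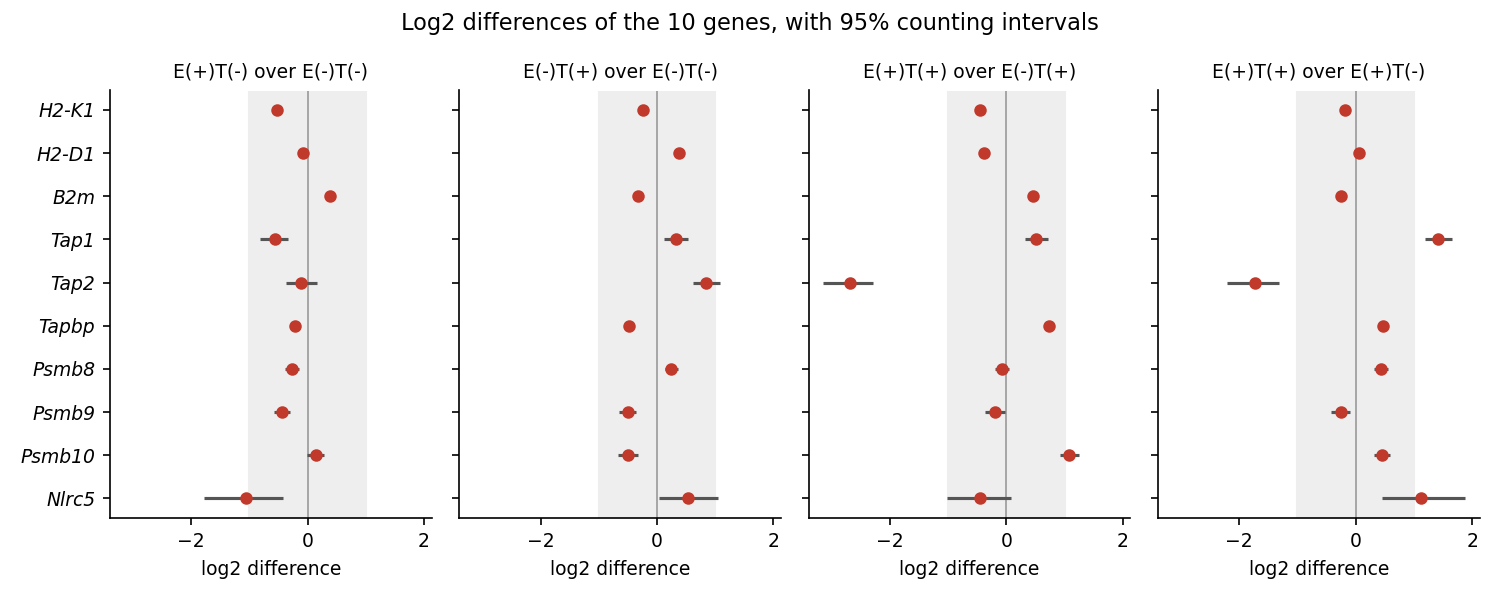
Log2 differences of the 10 genes (points) with 95% exact counting intervals (lines) in 4 comparisons, with the range inside 2-fold shaded. All points lie inside the band for E(-)T(+) over E(-)T(-), and Tap2 lies at -2.68 for E(+)T(+) over E(-)T(+).

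The differences past 2-fold were then counted over the 10 genes in each comparison. Exercise without tumor left 1 gene past the limit, Nlrc5, which was lower, and 0 higher, where 4.7% of all 15164 rows were 2-fold lower and 5.28% higher. The median of the 10 was -0.24, against 0 over all rows, and 8 of 10 were below 0. Tumor without exercise put 0 genes past the limit in either direction, although 20.6% of all rows were 2-fold higher and 25.7% lower. The median of the 10 was -0.001, against -0.03 over all rows, and 5 genes lay on each side of 0. All 10 intervals left out 0, and those of Tap2 and Nlrc5 reached past 2-fold. The largest difference was 0.84, for Tap2.

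Exercise with tumor put 1 gene higher, Psmb10, and 1 lower, Tap2, with 24.3% of all rows higher and 17.7% lower. The median was -0.14, against 0.01 over all rows. Tumor with exercise put 2 genes higher, Tap1 and Nlrc5, and 1 lower, Tap2, with 14.9% of rows higher and 13% lower, and the median was 0.24, against -0.003. With library totals alone, the medians of these last comparisons moved to -0.75 and -0.17. The same scaling moved the medians of all rows to -0.59 and -0.41. Among rows with a mean count of at least 50, where all 10 genes lie, the share past 2-fold in either direction was 2.88% for exercise without tumor (1 of the 10 genes), 40.6% for tumor without exercise (0), 36.2% for exercise with tumor (2) and 20.1% for tumor with exercise (3).

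The exercise comparisons with and without tumor share no library, so their directions can be set side by side. Of the 10 genes, 8 had the same direction in both, 6 lower (H2-K1, H2-D1, Tap2, Psmb8, Psmb9 and Nlrc5) and 2 higher (B2m and Psmb10). Over all 15164 rows, 49.5% had the same direction. For Tap2, Psmb8, Psmb10 and Nlrc5 the interval included 0 in 1 of these comparisons, and B2m was higher in both except that with library totals alone it was lower with tumor. Tap1 and Tapbp had opposite directions, though Tap1 was lower in both with library totals alone. In the tumor comparisons at rest and with exercise, which also share no library, 7 of 10 had the same direction, beside 65.6% of all rows. Tap2, Tapbp and Psmb10 had opposite directions. H2-D1 was higher in both, except that with exercise it was lower under library totals alone (-0.36) and under totals without hemoglobin (-0.04). The difference between the exercise effects with and without tumor was -2.57 for Tap2, 1.08 for Tap1, 0.95 for Psmb10 and 0.94 for Tapbp, and 0.07 for both H2-K1 and B2m. Its median size was 0.46 over the 10 genes and 0.88 over all rows.

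Class II genes, the separate antigen presentation pathway named above, had larger differences in the comparisons that involve the cancer control. In the cancer control 10 of 10 class II genes that passed the filter were 2-fold lower than in the normal control, beside 25.7% of all rows, with a median of -4.07, or -3.94 with H2-Oa and H2-Ob, which had 0 reads there, set to the floor. H2-Eb1 differed by -4.47, H2-Aa by -4.28, H2-DMb1 by -4.15 and H2-Ab1 by -3.99. H2-Aa, a class II alpha chain, had 10718, 12055, 426 and 4543 reads. With exercise and tumor, 9 of 10 were higher than in the cancer control, beside 24.3% of all rows, with a median of 3.33, or 3.10 at the floor. The remaining gene, Ciita, the class II transactivator, is named after its values were seen and had 34, 21, 3 and 0 reads, so that no fold is given. In the same comparison the 10 class I genes spread from -2.68 to 1.09. For exercise without tumor 0 of 10 class II genes were past 2-fold, beside 5.28% of rows higher and 4.7% lower, with a median of -0.12. For tumor with exercise 3 of 10 were lower and 0 higher, beside 13% and 14.9%, with a median of -0.72.

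Summed markers of several immune cell types differed in the same comparisons. B cell markers summed to 711, 527, 12.3 and 227 normalized counts, with reads for 1 of 4 markers in E(-)T(+) and for 4 of 4 in each other library. Dendritic cell markers summed to 876, 548, 144 and 509, although 2 of the 5 were not 2-fold lower in the cancer control, where 25.7% of all rows were. T cell markers summed to 1078, 869, 115 and 706, and natural killer cell markers to 526, 447, 95.7 and 134. For exercise with tumor, however, the median difference of the 5 natural killer markers was -0.28. Of these, 2 were 2-fold higher and 1 lower, beside 24.3% and 17.7% of all rows. Macrophage markers summed to 2459, 2301, 4241 and 4010, higher in both tumor libraries. However, only 1 of the 5 was 2-fold higher in the cancer control than in the normal control, Marco (4.27), beside 20.6% of all rows. Adgre1 was at -0.93 in that comparison. Neutrophil markers summed to 3664, 11521, 8837 and 194831, although Csf3r, of the same list, had 39, 30, 32 and 82 reads. As given above, sums of alveolar type 2 and endothelial markers were also far lower in the cancer control. The part of all these cells, and of tumor cells, in the class I and class II levels was not tested.

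Genes of the interferon-gamma axis, its receptor, signaling and target genes, had larger differences than the class I genes in the comparisons that involve the cancer control. In the cancer control 17 of 26 were 2-fold lower than in the normal control and 1 was higher, with a median of -1.48 (16 lower and a median of -1.42 with Ifng, at 0 reads there, set to the floor), beside 25.7% and 20.6% of all rows. With exercise and tumor 18 of 26 were higher than in the cancer control and 0 lower, with a median of 1.36 (17 and 1.31 at the floor), beside 24.3% and 17.7% of all rows. For exercise without tumor 2 of 26 were lower and 0 higher, beside 4.7% and 5.28% of rows, and for tumor with exercise 7 were higher and 2 lower, beside 14.9% and 13%. Gbp6, an interferon-induced guanylate-binding protein, had 180, 101, 1 and 87 reads, and Gbp4 had 959, 587, 31 and 160. The T cell attractants Cxcl9 and Cxcl10 were highest in the cancer exercise library, with 33, 8, 8 and 227 reads for Cxcl9 and 16, 18, 128 and 282 for Cxcl10. Irf1, a transcription factor that acts upstream of class I genes, is named after its values were seen, and differed by -1.70 in the cancer control relative to the normal control. Nlrc5, by contrast, was 0.53 higher there.

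**Figure D4:**
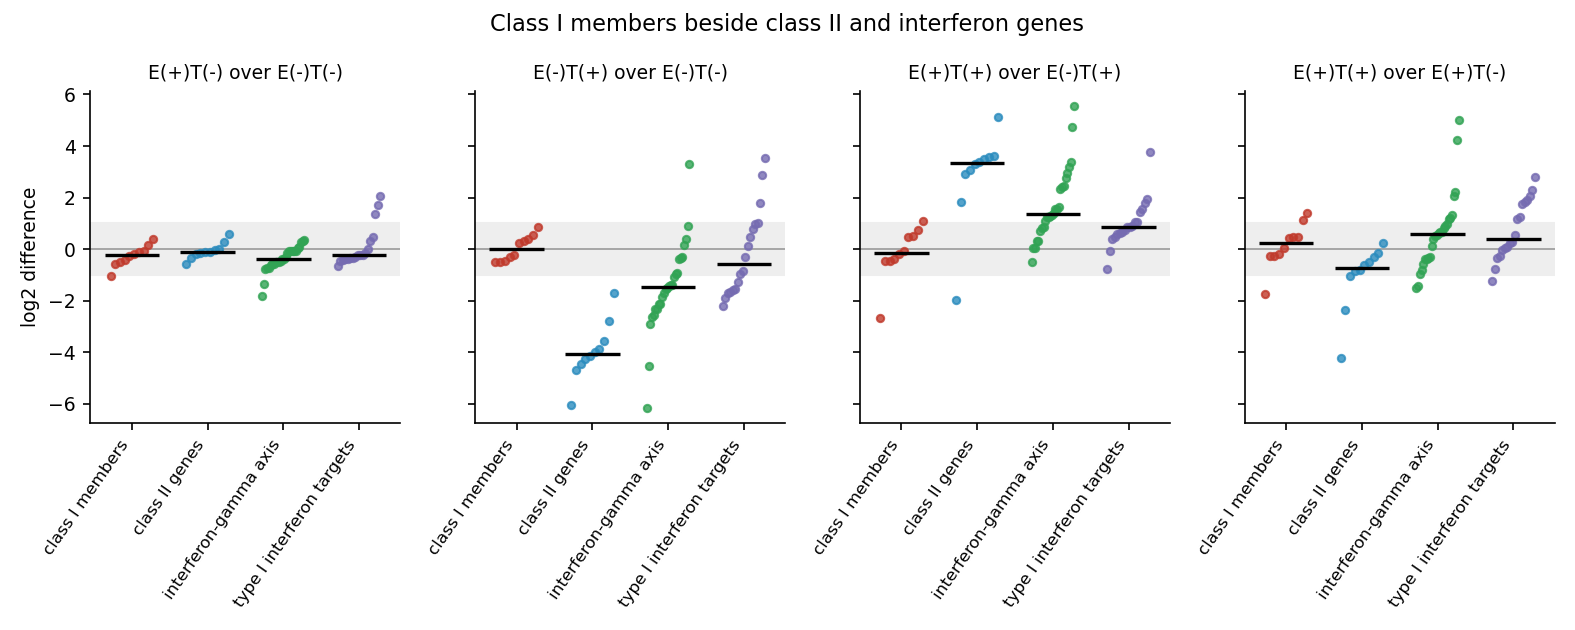
Log2 differences of single genes (points, sorted within each list) and list medians (black bars) for the 10 class I genes, 10 class II genes, 26 genes of the interferon-gamma axis and 18 type I interferon targets, with the range inside 2-fold shaded. For E(-)T(+) over E(-)T(-) the class II median is -4.07 and the class I median is -0.001.

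Of 18 type I interferon targets, 7 were lower and 3 higher in the cancer control than in the normal control, beside 25.7% and 20.6% of all rows. In the cancer exercise library 7 were higher than in the cancer control and 0 lower, beside 24.3% and 17.7%. For tumor with exercise 8 were higher and 1 lower, beside 14.9% and 13%, and for exercise without tumor 3 were higher and 0 lower, beside 5.28% and 4.7%. Rsad2, an antiviral gene, differed by 3.75 for exercise with tumor, and Ifit3 by -2.23 and Usp18 by -1.92 for tumor without exercise. The 3 genes higher in that comparison, named after their values were seen, were Oasl1 (3.53), Oas3 (2.88) and Oas2 (1.79), which had 6 or 7 reads each in the normal control. Irf7, a transcription factor of the interferon response, differed by 2.27 with tumor in the exercised libraries. The 8 genes of the SXY promoter complex, which Nlrc5 works with, had 0 past 2-fold for exercise without tumor, beside 5.28% of rows higher and 4.7% lower, and 0 for exercise with tumor, beside 24.3% and 17.7%. In each tumor comparison 1 of 8 was higher and 1 lower, beside 20.6% and 25.7% of rows at rest and 14.9% and 13% with exercise. Creb1 differed by -1.59 at rest and -1.47 with exercise, and Atf1 by 1.13 and 1.30. The 3 constitutive proteasome subunits had 1 past the limit in any comparison, Psmb7 with tumor at rest, where 20.6% of all rows were higher and 25.7% lower. The 4 proteasome activators had Psme3 at 1.04 for tumor with exercise, where 14.9% of rows were higher, and the 6 trimming and loading partners had Tapbpl, a tapasin-related editor, at -1.22 with tumor at rest, where 25.7% were lower.

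Non-classical and other class I genes included members past 2-fold and members that hardly differed. Of 30 listed, 19 passed the filter, and with tumor at rest 3 were 2-fold higher and 7 lower, beside 20.6% and 25.7% of all rows. For exercise with tumor 4 were higher and 5 lower (3 and 5 at the floor), beside 24.3% and 17.7%. For tumor with exercise 1 was higher and 5 lower (1 and 4 at the floor), beside 14.9% and 13%. For exercise without tumor 1 was higher and 1 lower, beside 5.28% and 4.7%. H2-T9 and H2-T22, named after their values were seen, differed by 0.011 and 0.010 with tumor at rest. Their reads were nearly equal in every library (837 and 854 in the normal control), so these genes may not be separate measurements. Cd1d1, which presents lipids to NKT cells, had 164, 100, 14 and 55 reads. H2-T24 differed by -2.57 with tumor at rest, and H2-Q9, a Qa-2 family gene, by -1.58. H2-K2, a neighbor of H2-K1, had 240, 221, 456 and 96 reads and differed by -2.14 with exercise in the tumor libraries. Class I genes of the Q and T regions are close copies of one another, so reads may be split among them. In the last 500 bases of H2-T22, 39.2% of 75-base windows also occur in H2-T10.

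Profiles across the 4 libraries were compared by the root mean square difference of centered log2 values. The nearest pairs among the members were H2-K1 with Psmb9 (0.127), H2-D1 with Psmb8 (0.145) and Tapbp with Psmb10 (0.176). Tap2 was the farthest member for each of the other 9. Of the 11192 other rows with a mean of at least 50, 131 were nearer to H2-K1 than Psmb9 was, and 681 were nearer to H2-D1 than Psmb8 was. The 10 rows nearest to the mean profile of the members were Tnpo2 (0.0199), Arid1b (0.0254), Prpf8, Gskip, Ube2q1, Lsm14b, Cnksr3, H2-T9, Phf10 and Heatr1 (0.0413). With 4 points per profile, such likeness describes these libraries only.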

How the data were processed

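Lung RNA was measured in 4 libraries, 1 per group (QuantSeq 3′ mRNA-Seq, single-end reads of 75 bases). The authors aligned reads with Bowtie2 to mm10, counted them with bedtools and normalized with the quantile method of edgeR. Versions, annotation and strand use are not given in the sources used here. The deposited values are log2(normalized read count + 1) at 3 decimals. Whole reads were recovered by inverting the negative binomial quantile adjustment (fitted dispersion 0.372); 100% of values were returned within 0.001, and 94.6% were resolved to 1 read. The procedure was tested on simulated data, but no result of that test is given here. Differences of deposited log2 values were compared with limits of 2-fold and a mean normalized count of 4, without tests, since each group has 1 library. Intervals are 95% exact and, like the floor of 3 reads, cover counting error of reads only. PCR copies are not independent molecules, so the intervals may be too narrow even for that error. Alternatives were library totals with or without hemoglobin, median-of-ratios, effective sizes, a pseudocount of 4, a 1.5-fold limit and other filters. All 10 members were named; from other lists, the genes past 2-fold at a mean count of at least 50, largest first, up to 4 per list; and the 10 nearest profiles. The members and lists were chosen with earlier results of these data known. Python 3.11.15, numpy 2.4.6, scipy 1.17.1 and pandas 2.3.3 were used.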

Additional observations from a re-analysis of the deposited data

Results flagged for a closer look

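For 4 of the 10 genes, exercise or tumor went with opposite directions depending on the other condition. The direction was the same in both exercise comparisons for 8 of the 10, beside 49.5% of all rows that passed the filter. In both tumor comparisons it was the same for 7 of the 10, beside 65.6% of those rows. The exercise effect with tumor minus that without tumor was 1.084 for Tap1, -2.574 for Tap2, 0.941 for Tapbp and 0.947 for Psmb10 on the log2 scale. Tap1 kept no opposite direction with library totals alone, where it was lower with exercise in both comparisons. Under that scaling B2m gained opposite exercise directions (0.30 without tumor and -0.15 with tumor) and H2-D1 opposite tumor directions (0.48 at rest and -0.36 with exercise), the latter also with totals without hemoglobin (0.28 and -0.04). With 1 library per group these differences were not tested.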

How the results depend on the processing

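Of the recomputed differences of single genes, 155 stayed within their counting interval and 45 moved beyond it, and no difference past 2-fold changed sign. With library totals alone, the median of the 10 genes was -0.745 for exercise with tumor (0 genes 2-fold higher and 3 lower, H2-K1, Tap2 and Nlrc5) and -0.168 for tumor with exercise, where 1 gene, Tap2, was past the limit. The shares of all rows past 2-fold were then 51.8% and 33.7%, against 42.0% and 27.8%. That scaling lets the hemoglobin share, 31.4% in the cancer exercise and 1.43% in the cancer control library, enter every other gene, and it put the medians of all rows at -0.594 and -0.410. With a pseudocount of 4, 0 genes and 6.66% of all rows were past the limit for exercise without tumor. With a 1.5-fold limit, 1 gene, Tap2, was past it for tumor without exercise, and 3 in place of 2 for exercise with tumor, with Tapbp added. The share of all rows at this limit is not given, but 46.2% and 42.0% were already past 2-fold in these comparisons. The share of all rows past 2-fold for exercise without tumor was 2.88% at a mean count of at least 50, against 9.98% at a mean of at least 4. Median-of-ratios, effective sizes, totals without hemoglobin and both other filters left the counts of the 10 genes as they were. No paired analysis was possible because each group has 1 library. Depth limits Nlrc5 most, with 28 to 72 reads, and Tap2 in E(+)T(+), with 53.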
